A study of Triticum aestivum with 15 samples.

Results

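HEMA1, FLU, EXECUTER 2 (EX2) and HSP70-1 are nuclear genes that the study linked to the tetrapyrrole pathway or to signals from the chloroplast to the nucleus. Here 8 probe sets that the study assigned to them were described in wheat leaves. The study's own table matches the HSP70-1 set to a mitochondrial chaperone. The members are the probe sets to which the text of the study or its tables of changed genes and primers give one of these names: 3 for HEMA1, 3 for FLU, 1 for EX2 and 1 for HSP70-1, out of 61290 on the Affymetrix Wheat Genome Array. They had been named because they were higher in the alloplasmic line TH237 than in its control T20, so the members are described in this contrast with no test.

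The study hybridised 15 arrays, 3 for each of 5 lines of bread wheat (Triticum aestivum), with RNA of the second fully expanded leaf of seedlings 14 days old. An alloplasmic line carries the nucleus of wheat in the cytoplasm, and so with the chloroplasts and mitochondria, of another species, while a euplasmic line keeps its own. TH237 has the nucleus of T20 and the cytoplasm of Hordeum chilense accession H7, a wild barley, and was set against euplasmic T20. T183 carries the cytoplasm of Aegilops uniaristata and T195 that of Aegilops tauschii, both with the nucleus of cultivar Chris, and both were set against the same arrays of euplasmic Chris. All plants were grown at the higher light intensity of the study, and each array holds the plants bulked from one pot. TH237 was obtained after fewer backcrosses than T183 and T195, and the cytoplasm and any nuclear difference left by the crosses cannot be told apart. T20 and Chris are different wheats, so a difference between the TH237 pair and the Chris lines is also one of nuclear background. The array measures signal in whole leaf tissue, in which fewer cells of a type and less RNA per cell cannot be told apart.

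Chlorophyll and heme are built from the same tetrapyrrole precursors, and the supply is set at the first committed step, the reduction of glutamyl-tRNA in the chloroplast. Free precursors of chlorophyll are dangerous in light because they pass energy to oxygen and give singlet oxygen. In Arabidopsis, glutamyl-tRNA reductase is encoded by a small family with HEMA1 as the main form of green tissue, FLU is a protein of chloroplast membranes that binds the reductase and holds back the pathway, and the EXECUTER proteins are needed for the response of nuclear genes to singlet oxygen. HSP70 proteins are chaperones that bind unfolded proteins, and in green algae HSP70 genes have been linked to a signal from magnesium tetrapyrroles.

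The study also measured EX2 and FLU by qRT-PCR, and the primers show which stretch of each transcript was read. They are printed 5′ to 3′, with the last 5 bases, from which the polymerase extends, in capitals.
EX2 forward: gctccatcaaaagtttggtcaTTAGA
EX2 reverse: cctgtaaacctatccagcaaGGACA
FLU forward: agaaggcaggcaagttctaCGATG
FLU reverse: cacacgcacacacacactGTTTC
The EX2 pair belongs to probe set TaAffx.110498.1.S1_at and the FLU pair to TaAffx.128618.1.S1_at. The primers are 23 to 26 bases long with a G and C content of 38.5% to 52.2%, the lowest in the EX2 forward primer. The FLU reverse primer holds an unbroken run of 11 bases that alternate C and A, against at most 3 in the other primers. The qRT-PCR values were not used here.

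Signals are linear MAS 5.0 values, scaled by the authors so that every array has the same trimmed mean, near 500.3. A log2 difference was taken after 16 had been added to each signal, with the standard error (SE) of 1 limma model of all 15 arrays. A probe set entered the model when its signal was above the 55th percentile of the array on at least 3 arrays. This percentile lay at signals of 90.0 to 121 and serves as a mark of dim probe sets. Of 61179 probe sets that are not controls 31555 entered, all 8 members among them. EX2 and TaAffx.8262.1.S1_x_at, the third HEMA1 set, entered only through their arrays of T20 and TH237, the lines of the contrast that chose them. In the lines with the Chris nucleus EX2 had no array above the percentile and the HEMA1 set 1 each of Chris and T195. A probe set was called at a Benjamini-Hochberg adjusted p of at most 0.05 over all probe sets and a change of at least 2-fold. R-squared between arrays of a line was 0.915 to 0.939. The polyubiquitin probe set, the reference gene of the qRT-PCR, differed between TH237 and T20 by -0.16 ± 0.15 (limma adjusted p 0.661).

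One array has to be named before the results. Chris replicate 3 carried a far higher HEMA1 signal than the other Chris arrays, and with it a higher signal of the chlorophyll a/b-binding proteins of the light-harvesting complex of photosystem II (LHCII). Of 11 LHCII probe sets in the study's table of changed genes, 10 were at least 2-fold higher on Chris replicate 3 than on both other Chris arrays. The median LHCII signal was 84.6, 56.0 and 925 on Chris replicates 1, 2 and 3, against 661 to 1771 in T20 and 6184 to 7553 in TH237. A probe set of the small subunit of RuBisCO, the enzyme that fixes CO2, gave 239, 485 and 3776 on the same Chris arrays. On the T20 arrays it gave 1853, 2681 and 3516. At probe sets picked to separate T20 and TH237 from T183 and T195, Chris replicate 3 lay with the other Chris arrays. These sets cannot tell Chris from T183 or T195, which lay on the same side by the choice of sets. The reason for the HEMA1 and LHCII signals of Chris replicate 3 was not tested. Of 51 probe sets that were bright in T20 and TH237 and dim in T183 and T195, 5, 7 and 9 lay above the 55th percentile on Chris replicates 1, 2 and 3, with a median of 2.10%, 1.98% and 1.72% of the T20 signal. Over all probe sets in the model, 331 were at least 2-fold higher and 274 at least 2-fold lower on Chris replicate 3 than on both other Chris arrays, while the other 14 arrays had 102 to 408 and 301 to 666 against the rest of their own line. The difference of each member from Chris is therefore given with and without this array, a choice made after the values had been seen. The ratio of 3′ to 5′ signal at the actin control was 1.02, 0.94 and 2.19 on Chris replicates 1, 2 and 3. On TH237 replicate 1 it was 2.56. At the GAPDH control the Chris ratios were 0.14, 0.86 and 0.25. Whether RNA quality bears on the signals of Chris replicate 3 was not tested. The LHCII list also serves as the check of the labelled tissue. In T183 and T195 the median LHCII signal of an array was 45.6 to 81.1, below the mark, with 4 or 5 of the 11 probe sets above it on each array. The list was drawn by the study from probe sets that changed on these arrays. No grain storage protein was found among the annotated probe sets, so a lack of grain signal could not be checked.

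**Figure D1:**
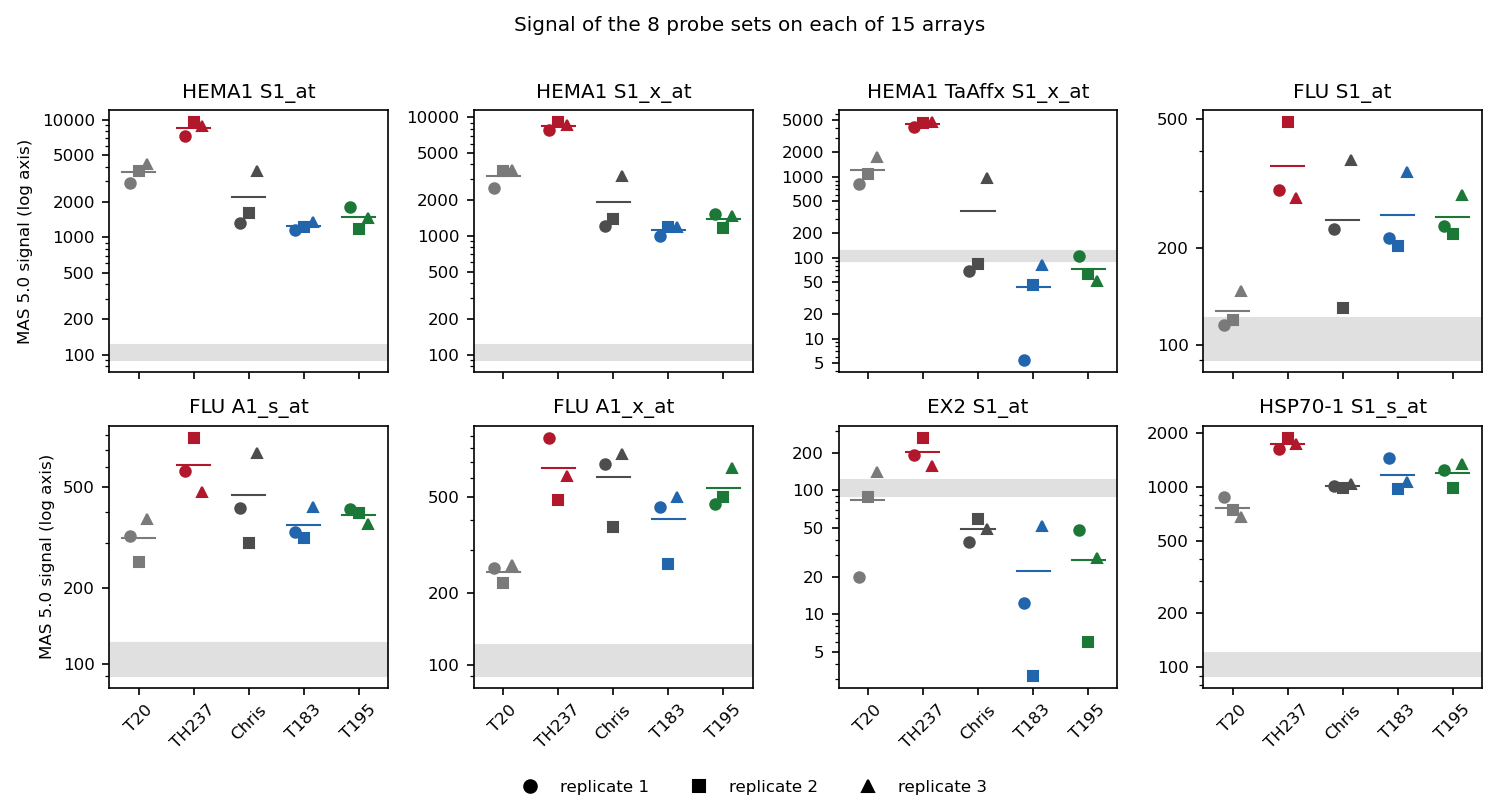
MAS 5.0 signal (log axis, no unit) of the 8 probe sets on each of the 15 arrays, by line. Symbols mark the replicate number, short lines the mean of 3 arrays, and the grey band the range of the 55th percentile over arrays (90.0 to 121). TH237 lies above T20 without overlap in every panel, and Chris replicate 3 stands above the other Chris arrays in the 3 HEMA1 panels.

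HEMA1, which encodes the glutamyl-tRNA reductase that opens the pathway, was the brightest of the genes in TH237. The S1_at probe set (Ta.3243.1.S1_at) gave signals of 2910, 3653 and 4212 on the T20 arrays and of 7329, 9585 and 8836 on the TH237 arrays. On the Chris arrays it gave 1321, 1626 and 3690, on the T183 arrays 1163, 1217 and 1365, and on the T195 arrays 1810, 1174 and 1462. TH237 stood above every other array, T20 came next, and Chris replicate 3 fell within the T20 range. The log2 difference of TH237 from T20 was 1.26 ± 0.31, and the ratio of the mean signals 2.39.

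The second probe set of this sequence cluster, S1_x_at (Ta.3243.1.S1_x_at), gave 2513, 3542 and 3566 in T20 and 7798, 9079 and 8530 in TH237. Signals of 1200, 1397 and 3224 were found in Chris, of 999, 1198 and 1194 in T183 and of 1538, 1159 and 1459 in T195, so that the lines kept the order they had at S1_at. TH237 exceeded T20 by 1.41 ± 0.29 on the log2 scale. Both sets read the same transcript cluster and are not independent of each other, and an ending of x_at marks a set whose probes can also match other transcripts. Their log2 signals followed each other over the 15 arrays with a Pearson correlation of 0.996.

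The third HEMA1 probe set, TaAffx.8262.1.S1_x_at, was the most uneven across the lines. It is named in the text of the study and is not in its table of changed genes. Its signals were 805, 1077 and 1779 in T20 and 4155, 4662 and 4735 in TH237. The Chris arrays gave 69.0, 82.8 and 969, those of T183 gave 5.43, 46.1 and 80.4, and those of T195 gave 104, 62.4 and 51.5. A clear signal was thus present in T20, in TH237 and on Chris replicate 3, while of the remaining Chris, T183 and T195 arrays 1 of T195 was above its own 55th percentile. TH237 exceeded T20 by a log2 difference of 1.95 ± 0.77, the largest of the 8 and the least precise.

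FLU, the brake on the same enzyme, gave a different order of lines. FLU S1_at (TaAffx.128618.1.S1_at), the set whose transcript the primers above amplify, gave 116, 120 and 147 in T20 and 301, 490 and 286 in TH237. The Chris arrays gave 229, 131 and 374, the T183 arrays 214, 202 and 343 and the T195 arrays 234, 220 and 292. T20 was the lowest line and lay close to the dim mark, and TH237 overlapped with the 3 lines of the Chris nucleus. Between TH237 and T20 the log2 difference was 1.35 ± 0.32.

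FLU A1_s_at (Ta.24301.1.A1_s_at) gave 322, 252 and 373 in T20 and 578, 782 and 479 in TH237. The Chris signals were 413, 301 and 682, those of T183 were 333, 316 and 417, and those of T195 were 410, 396 and 359. The TH237 and T20 arrays did not overlap, while T20 overlapped with each of the lines of the Chris nucleus. TH237 was above T20 by a log2 difference of 0.91 ± 0.26, the smallest of the 8.

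FLU A1_x_at (Ta.24301.1.A1_x_at), of the same cluster, gave 254, 220 and 261 in T20 and 885, 486 and 613 in TH237. Chris had 690, 374 and 761, T183 had 455, 263 and 504, and T195 had 467, 500 and 666. T20 lay below every array of the other lines, the nearest being T183 replicate 2. The log2 difference of TH237 from T20 was 1.34 ± 0.30, and TH237 exceeded Chris by only 0.14. Ordered by mean log2 signal, TH237 was the highest and T20 the lowest of the 5 lines at all 3 FLU sets, and TH237 and the line next to it in that order overlapped at each. The endings s_at and x_at mark sets whose probes can match more than 1 transcript, such as the copies of a gene on the different genomes of hexaploid wheat.

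EX2 was the dimmest member. Its set TaAffx.110498.1.S1_at gave 20.1, 88.6 and 140 in T20 and 191, 265 and 158 in TH237. Chris reached 38.4, 59.2 and 48.5, T183 reached 12.3, 3.19 and 51.3, and T195 reached 47.8, 6.01 and 28.3. The signal was above the 55th percentile of its array on all 3 TH237 arrays, on 1 T20 array and on none of the other lines. The difference of TH237 from T20 was 1.37 ± 0.55, and its size depends on the value added before the log2, from 0.94 with 64 to 1.64 with 1. It was 0.76 without T20 replicate 1 and 1.82 without T20 replicate 3.

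HSP70-1, a chaperone of the HSP70 family, was the most even member within lines. Its set Ta.24154.1.S1_s_at gave 880, 744 and 680 in T20 and 1626, 1879 and 1739 in TH237. Chris gave 1016, 997 and 1046, T183 gave 1452, 974 and 1075, and T195 gave 1239, 984 and 1354. TH237 lay above every array of the other lines, and T20 lay below every other array. On the log2 scale TH237 exceeded T20 by 1.18 ± 0.17. The study's own table matches this probe set to the mitochondrial chaperone mtHSC70-2 of Arabidopsis and places it in the mitochondrion, so the name HSP70-1 was kept here as a label only. Another set of its cluster, Ta.24154.1.S1_x_at, was dim, with mean signals of 92.5 to 133, and differed between TH237 and T20 by -0.14 ± 0.40 (limma adjusted p 0.904).

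In all, 8 of 8 members had every TH237 array above every T20 array, which 12.4% of all probe sets in the model also had in this direction. Since the members were chosen on this contrast, nothing is read from this count. The remaining sets of the FLU S1_at cluster, TaAffx.128618.2.S1_at and TaAffx.128618.3.A1_at, were at mean signals of 1.89 to 13.8 in every line and did not enter the model.

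The lines that the choice of members did not use were T183 and T195, and they ask whether an Aegilops cytoplasm moved the same genes. In T183 0 of 8 members were called against Chris, beside 0.124% of all probe sets. Of the 8, EX2 and TaAffx.8262.1.S1_x_at entered the model only through T20 and TH237. Their calls and p-values in T183 and T195 are therefore printed as description and lend no support. The differences of HEMA1 from Chris were -0.67 ± 0.31 at S1_at, -0.63 ± 0.29 at S1_x_at and -2.00 ± 0.77 at TaAffx.8262.1.S1_x_at, with limma adjusted p of 0.712, 0.724 and 0.577. These 3 had an unadjusted p under 0.05, as had 6.89% of all probe sets. Only S1_x_at had no overlap between T183 and Chris arrays, in the lower direction, which 6.24% of all probe sets showed.

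Without Chris replicate 3 the HEMA1 differences of T183 shrank to -0.23 ± 0.22, -0.20 ± 0.20 and -0.86 ± 0.51, with limma adjusted p of 0.999 for each, and 0 of 8 members had an unadjusted p under 0.05. The 95% intervals then ran from -0.71 to 0.24 at S1_at and from -0.62 to 0.23 at S1_x_at, and reach neither 2-fold higher nor 2-fold lower. At TaAffx.8262.1.S1_x_at the interval without that array ran from -1.96 to 0.24. With Chris replicate 3 kept, the intervals at S1_at and S1_x_at ran from -1.335 to -0.012 and from -1.265 to -0.0022. Both of these reach 2-fold lower. At TaAffx.8262.1.S1_x_at the interval with that array ran from -3.65 to -0.35. A 2-fold lower signal at S1_at and S1_x_at thus lies outside the intervals only without that array, a choice made after the values had been seen.

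At FLU the T183 differences from Chris were 0.12 ± 0.32 (S1_at), -0.31 ± 0.26 (A1_s_at) and -0.55 ± 0.30 (A1_x_at), with limma adjusted p of 0.981, 0.901 and 0.797. Without Chris replicate 3 they were 0.47 ± 0.29, -0.0015 ± 0.23 and -0.36 ± 0.33. HSP70-1 differed by 0.17 ± 0.17 (95% interval -0.20 to 0.54), and EX2, below the dim mark in both lines, by -0.95 ± 0.55. Both values moved by less than their SE without that array.

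In T195 0 of 8 members were called against Chris, beside 0.254% of all probe sets, and none had an unadjusted p under 0.05, which 11.2% of all probe sets had. HEMA1 differed by -0.45 ± 0.31 at S1_at and -0.35 ± 0.29 at S1_x_at, with limma adjusted p of 0.655 and 0.735. TaAffx.8262.1.S1_x_at differed by -1.24 ± 0.77 (adjusted p 0.607, the smallest of the 8 in limma). That set, like EX2, entered the model only through T20 and TH237. Without Chris replicate 3 the HEMA1 differences of T195 were -0.0060 ± 0.22, 0.086 ± 0.20 and -0.094 ± 0.51. FLU differed by 0.13 ± 0.32 at S1_at, -0.18 ± 0.26 at A1_s_at and -0.11 ± 0.30 at A1_x_at, and HSP70-1 by 0.21 ± 0.17 (95% interval -0.16 to 0.58). Without that array the FLU differences were 0.47 ± 0.29, 0.13 ± 0.23 and 0.077 ± 0.33. EX2 differed by -0.69 ± 0.55, and by -0.69 ± 0.63 without that array, while HSP70-1 then differed by 0.23 ± 0.20. The comparisons of T183 and T195 share their Chris arrays, so that an error in Chris moves both.

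Between the Aegilops cytoplasms themselves 0 of 8 members were called, beside 0.0729% of all probe sets, and 0 had an unadjusted p under 0.05, beside 7.89%. T183 was at or below T195 in the mean of all 8 members, by 0.01 at FLU S1_at up to 0.77 at TaAffx.8262.1.S1_x_at, each with overlapping arrays and a limma adjusted p of at least 0.825. For HSP70-1 the 95% interval of T183 minus T195 was -0.41 to 0.33.

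**Figure D2:**
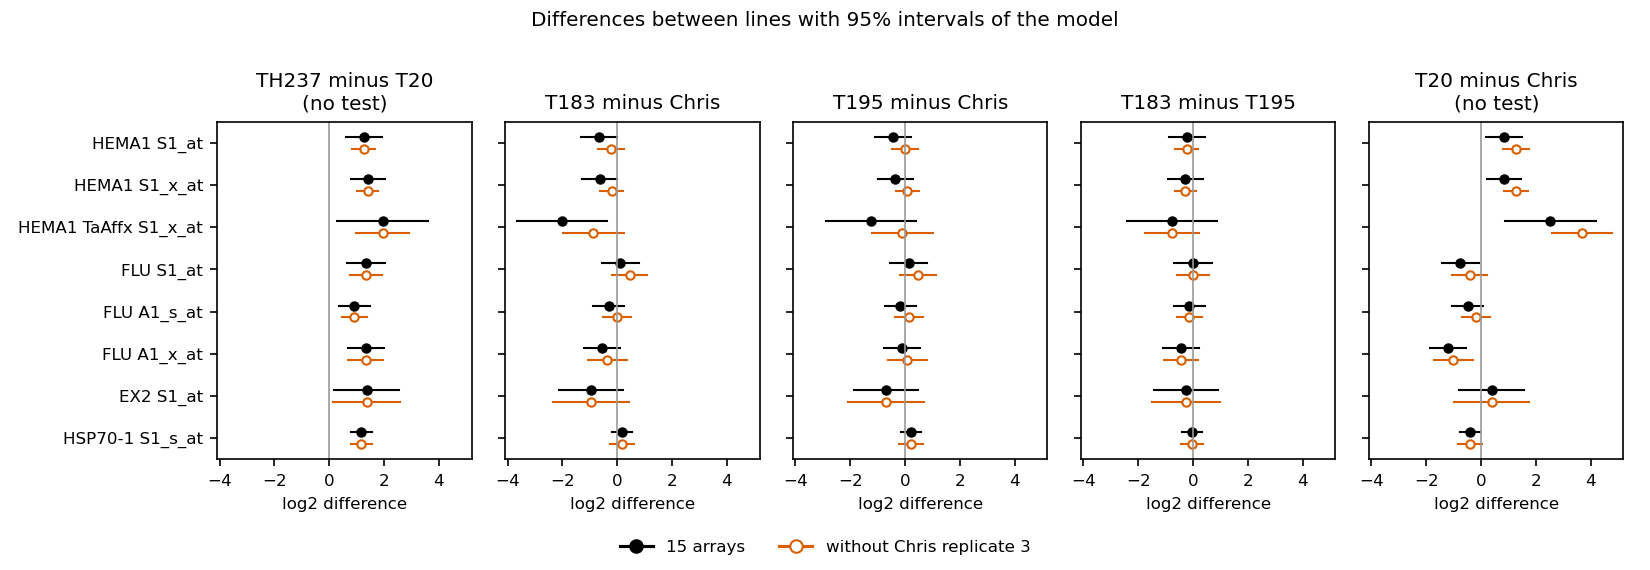
Log2 difference (horizontal axis) of each of the 8 probe sets in 5 contrasts between lines, with the 95% interval of the limma model. Filled points use 15 arrays and open points leave out Chris replicate 3. The HEMA1 differences of T183 and T195 from Chris move toward 0 without that array, and those of HSP70-1 stay near 0.2 in both fits.

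T20 and Chris, the euplasmic wheats, are set side by side as a description only, since the T20 arrays are one side of the contrast that chose the members and low T20 values were favoured by that choice. The log2 difference of T20 from Chris at HEMA1 was 0.83 ± 0.31 (S1_at), 0.84 ± 0.29 (S1_x_at) and 2.54 ± 0.77 (TaAffx.8262.1.S1_x_at), and without Chris replicate 3 it was 1.27 ± 0.22, 1.28 ± 0.20 and 3.68 ± 0.51. At FLU it was -0.75 ± 0.32, -0.48 ± 0.26 and -1.20 ± 0.30 at S1_at, A1_s_at and A1_x_at, and without that array -0.41 ± 0.29, -0.17 ± 0.23 and -1.01 ± 0.33. Leaving out the array thus moved the HEMA1 values away from 0 and the FLU values toward it. HSP70-1 had -0.41 ± 0.17 with the array and -0.39 ± 0.20 without it, and EX2 0.39 ± 0.55 and 0.39 ± 0.63.

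The genes followed different patterns over the 15 arrays. Averaged over its 3 probe sets, HEMA1 moved with the mean of the 11 LHCII probe sets with a Pearson correlation of 0.987 over 15 arrays. After the mean of each line had been taken away the correlation was 0.93, and without Chris replicate 3 it was 0.70. The HEMA1 sets and most of the LHCII sets were named as higher in TH237, which favours a high correlation over the 15 arrays. FLU correlated with HEMA1 at 0.29 over the 15 arrays. Within lines that value was 0.60, and 0.08 without Chris replicate 3, the array on which the mean of FLU, like that of HEMA1, was the highest of the Chris arrays. HSP70-1 correlated with FLU at 0.73 over the 15 arrays, where both were lowest in T20 and highest in TH237, and at 0.16 within lines (0.15 without that array). EX2 correlated with HEMA1 at 0.85 over the arrays, at 0.37 within lines, and at 0.74 within lines without Chris replicate 3. Most EX2 signals lay below the dim mark, and both genes were chosen as higher in TH237. The 15 points share 5 lines, so these correlations describe the arrays and carry no test.

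**Figure D3:**
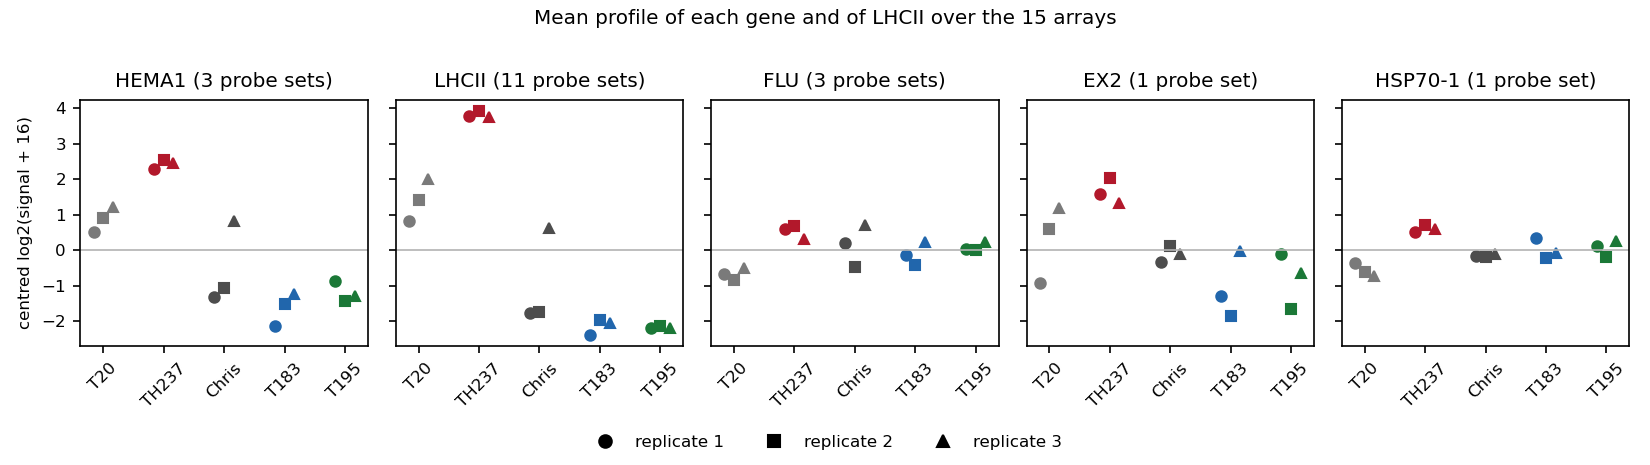
Mean of log2(signal + 16), centred for each probe set over the 15 arrays, for HEMA1, LHCII, FLU, EX2 and HSP70-1 by line. Symbols mark the replicate number. HEMA1 and LHCII correlate at r = 0.987, with Chris replicate 3 among the T20 values at HEMA1, while T20 is the lowest line at FLU and HSP70-1. Most HEMA1 and LHCII sets were named as higher in TH237, which favours that correlation.

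Among probe sets outside their own clusters, those most like HEMA1 were Ta.22819.1.S1_x_at (r = 0.993), the LHCII set Ta.3249.1.S1_at (0.990) and Ta.11386.2.S1_a_at (0.988), over 15 arrays, and 611 probe sets had a correlation over 0.9. Ta.3249.1.S1_at gave 4.07, 10.5 and 873 on Chris replicates 1, 2 and 3, and mean signals of 962 in T20 and 9889 in TH237. The study named this set, like HEMA1, as higher in TH237, which favours a high correlation. The sets most like FLU were Ta.11928.1.A1_at (0.883), Ta.18333.1.S1_x_at (0.876) and Ta.344.1.S1_x_at (0.849), and none reached 0.9. EX2 was followed most closely by Ta.6594.1.S1_s_at (0.925), which the study assigns to LSD1, a zinc finger protein that restrains cell death in Arabidopsis. Ta.22587.2.S1_x_at (0.922) and Ta.21703.1.A1_at (0.921) came next, with 9 sets over 0.9. Most EX2 signals lay below the dim mark. The study named both EX2 and LSD1 as higher in TH237, which favours a high correlation between them. HSP70-1 was followed by Ta.81.1.S1_at (0.970), Ta.993.3.S1_a_at (0.952) and Ta.7451.1.A1_at (0.930), with 6 sets over 0.9. Ta.81.1.S1_at had mean signals of 899 in T20, 1562 in TH237 and 1099 to 1302 in the lines of the Chris nucleus.

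The other genes of the pathway on the array could be named only through the study's table of changed genes, which was drawn from these arrays and is no independent sample of the pathway. It held 7 probe sets of tetrapyrrole metabolism, of which 5 are HEMA1 and FLU members. Of the 7, 4 were called higher in TH237 against T20 (beside 1.35% of all probe sets), all of them HEMA1 and FLU members, and 1 was called lower (beside 0.925%), with a median difference of 1.26 beside 0.0014 over all probe sets. These counts come from the contrast on which the table was drawn and carry no evidence of their own. They fell with any 1 T20 or TH237 array left out: 1 of the 7 was called without T20 replicate 1, and 2 or 3 without any other T20 or TH237 array. Calls over all probe sets fell there too, from 719 to between 435 and 606, while the members' differences kept their sign. The methods' t-test called 0 of the 7, beside 1 of all probe sets. Against Chris 0 of the 7 were called in limma in either Aegilops line (beside 0.124% of all in T183 and 0.254% in T195), and an unadjusted p under 0.05 was found for 2 in T183 and 1 in T195 (beside 6.89% and 11.2% of all). The 2 in T183 were HEMA1 S1_at and S1_x_at, already given above, and neither kept it without Chris replicate 3. The 1 in T195 was not a member. The set called lower, Ta.19469.1.A1_x_at, is annotated as protoheme IX farnesyltransferase, which makes heme O for the respiratory chain from heme. Its signals were 1099, 911 and 1023 in T20 and 197, 234 and 231 in TH237, a difference of -2.12 ± 0.22. Chris gave 261, 138 and 243, T183 gave 239, 185 and 184, and T195 gave 170, 115 and 115, so that T20 alone was high. The set not called beside FLU A1_s_at was TaAffx.67544.1.S1_at, similar to ACD1 of chlorophyll breakdown, with -0.58 ± 0.32.

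HSP70-1 was the only set of that table named as an HSP70. Beside it the table held 6 other heat shock sets. With HSP70-1, 5 of these 7 were called higher (beside 1.35% of all probe sets) and 1 lower (beside 0.925%) in TH237, with a median difference of 1.32, again on the contrast from which the table was drawn. Without T20 replicate 1 or 2 or TH237 replicate 1 or 2, 3 were called, where 435 to 540 of all probe sets were called in place of 719. The methods' t-test called 0, beside 1 of all probe sets. Against Chris 0 were called in T183 or T195 in limma (beside 0.124% and 0.254%), with 1 at an unadjusted p under 0.05 in each (beside 6.89% and 11.2%). It was the same set in both, Ta.12042.1.S1_at, at -2.52 ± 0.59 and -1.39 ± 0.59. Its signal was far higher on Chris replicate 3 than on the other Chris arrays, as given below. The set called lower, TaAffx.56160.1.S1_at, entered the model only through T20, where it was high. TaAffx.128835.2.A1_x_at, among those called higher, entered only through T20 and TH237. The counts that include these sets lend no support. HSP23.6-MITO (Ta.204.1.S1_at), a small chaperone of mitochondria, gave 925, 904 and 787 in T20 and 3687, 4590 and 3335 in TH237, a difference of 2.12 ± 0.22. Its Chris arrays gave 1756, 1197 and 1583, so that at this gene, as at HSP70-1, T20 was the lowest line and TH237 the highest.

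DNAJ proteins are co-chaperones that stimulate HSP70. Their sets TaAffx.128835.2.A1_x_at, TaAffx.37294.1.S1_at and Ta.17683.1.S1_at (J11) were higher in TH237 by 2.53 ± 0.54, 1.44 ± 0.22 and 1.32 ± 0.27. HSP101 (TaAffx.56160.1.S1_at), which pulls apart aggregated proteins, was lower by 1.33 ± 0.35, with signals of 197 to 287 in T20, 61.5 to 115 in TH237 and at most 46.6 in the lines of the Chris nucleus. The set that was not called, Ta.12042.1.S1_at, matches a small heat shock protein of the chloroplast and differed by 1.15 ± 0.59. It gave 556, 249 and 2375 on Chris replicates 1, 2 and 3, and so stood apart on the array on which HEMA1 did.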

How the data were processed

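The deposited values are 1 intensity per probe set and array, MAS 5.0 signals on a linear scale made by the authors. Each array had been scaled to a trimmed mean near 500.3. The table held 61290 probe sets with 111 controls. The methods name RMA for the authors' own comparisons, which were not used. Median signals per array were 67.3 to 94.9, and the precision is limited by 3 arrays per line. Arrays were assigned to lines by their labels, and p-values measure the spread between these pots only.

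After 16 had been added, log2 values were fitted with limma 3.58.1 in R 4.3.3 in 1 model of 5 lines (10 residual and 3.20 prior degrees of freedom). Benjamini-Hochberg adjustment ran over the 31555 probe sets kept. Known changes in simulated data served to test the code. Alternatives covered the value added, the filter, the scaling, the arrays in the fit, the methods' t-test, the fold limit, array weights, a replicate block and the removal of each array. The named genes are all 8 members, other sets of their clusters, up to 4 called sets of each list, the 3 sets most like each gene and the qRT-PCR reference. Members and lists were chosen with earlier results of these data known. Of all probe sets 1273 carry a gene symbol, none of a member, and no sequence of a member beyond the primers was used. Replicate numbers were not taken to pair the arrays: residuals of same-numbered arrays correlated at -0.196 to 0.0309 in the comparisons made and at up to 0.219 over all pairs of lines, with 3 of 30 correlations over 0.1.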

Additional observations from a re-analysis of the deposited data

Results flagged for a closer look

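At several members every TH237 array lay above the mean of T20 while every array of an Aegilops line lay below the mean of Chris. These differences between the effects were not tested, because the contrast of TH237 with T20 chose the members. The TH237 side of each was favoured by that choice. At EX2 and TaAffx.8262.1.S1_x_at most signals of Chris, T183 and T195 lay below the dim mark, so the values there are uncertain. With T183, the difference between the effects on the log2 scale was 1.93 at HEMA1 S1_at, 2.05 at HEMA1 S1_x_at, 3.95 at HEMA1 TaAffx.8262.1.S1_x_at, 1.22 at FLU A1_s_at and 1.89 at FLU A1_x_at. Without Chris replicate 3 these values were 1.49, 1.61, 2.81, 0.91 and 1.70, and the T183 arrays below the Chris mean were then 3, 3, 2, 2 and 3 of 3. With T195, the difference was 1.71 at HEMA1 S1_at, 1.76 at HEMA1 S1_x_at, 3.18 at HEMA1 TaAffx.8262.1.S1_x_at, 1.09 at FLU A1_s_at and 2.06 at EX2 S1_at. Without Chris replicate 3 these values were 1.27, 1.33, 2.04, 0.78 and 2.06, with 2, 1, 2, 0 and 3 of 3 T195 arrays below the Chris mean. At FLU S1_at and HSP70-1 no such opposition was seen. Lines of 3 arrays are too small for a test of single outlying arrays.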

How the results depend on the processing

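In each of 27 alternatives 0 of 8 members were called in T183 and in T195. In the main fit 0.124% and 0.254% of all probe sets were called there, so 0 of 8 says nothing particular about the members. The TH237 difference of every member kept its sign, with EX2 missing under the stricter filter, which it did not pass. Over all probe sets, 719 were called in TH237, 39 in T183 and 80 in T195. The methods' t-test gave 1, 1 and 0 after adjustment and 860, 151 and 257 at its threshold without it. In TH237 1353 were called with no fold limit and 1300 with a 1.5-fold limit, and 435 to 726 with 1 array left out. In T183 28 to 74 were called with 1 array left out. In T195 43 were called without the filter, 26 with only the 2 lines in the fit, and 33 (without Chris replicate 3) to 112 with 1 array left out. Without the filter 2 in place of 5 tetrapyrrole sets were called in TH237. Of the 5 tetrapyrrole and 6 heat shock sets called in TH237, 0 and 0 were called with the methods' t-test, and 1 to 5 and 3 to 6 with 1 array left out, alternatives added after the calls had been seen. Replicate numbers as a block left 0 members called in T183 and T195 and moved no count by over 1.5 times.

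Signs changed only where no difference was called and 1 array was left out: at FLU S1_at from -0.24 to 0.47 in T183 and from -0.23 to 0.47 in T195, and in T195 from -0.62 to 0.086 at HEMA1 S1_x_at, from -0.44 to 0.13 at FLU A1_s_at and from -0.42 to 0.077 at FLU A1_x_at. EX2 and TaAffx.8262.1.S1_x_at are dim in the lines of the Chris nucleus, so the size of their differences depends on the value added: for the latter in T183 from -2.62 with 1 to -1.40 with 64, and for EX2 from -1.78 to -0.42 in T183 and from -1.18 to -0.32 in T195. The EX2 difference of T195 was -0.27 without T195 replicate 2.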
